A study of Mus musculus with 10 samples.

Results

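Mammary epithelial cells of 2 transgenic mouse genotypes were compared gene by gene: NIC-Carm1, with 3 libraries, and NIC-Prmt6, with 2. The comparison takes in every gene of the deposited table with a normalised read count of at least 10 in at least 2 libraries, which is 15694 of 16290 genes. The whole series holds 10 libraries, and the other 5 (2 of NIC and 3 of NIC-Prmt1) enter here to estimate the spread and to show where other genotypes lie. Both genotypes share the FVB strain and the NIC background, which the labels do not spell out and which in published work is a transgene that expresses an activated Neu (ErbB2) receptor together with Cre recombinase from the MMTV promoter. The genotype labels add Carm1 to that background in one group and Prmt6 in the other, and the series as a whole is described as mice that overexpress PRMTs from transgenes. The labels give no promoter for those transgenes, no age and no number of animals per library. Cells came from mammary glands 3 and 4, freed by enzyme digestion and enriched by pulse centrifugation, and polyadenylated RNA was sequenced. Nothing in the labels says that the libraries of a group came from separate animals, so every p-value measures only the spread between these samples, which may be technical.

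CARM1 (also called PRMT4) and PRMT6 are both type I protein arginine methyltransferases, which add an asymmetric dimethyl mark to arginines. CARM1 is best known as a coactivator of nuclear receptors that methylates histone H3 in its tail and proteins such as p300 and BAF155. PRMT6 methylates another arginine of histone H3, close to the lysine that marks active promoters, and is best known as a repressor of genes such as the CDK inhibitor Cdkn1a. In the mammary gland the epithelium has an inner luminal layer, which holds hormone-sensing cells and the progenitors of milk-producing cells, and an outer contractile basal layer, all set in a stroma of fibroblasts, fat and vessels.

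Depth in the 5 libraries compared ran from 22787789 to 30260921 recovered reads. In both groups a pair of libraries was nearly the same. Scaled to 1 for pure counting noise, the chi-square between reads was 2.69 for NIC-Carm1 replicates 2 and 3 and 2.44 for NIC-Prmt6 replicates 1 and 2. It was 28.0 to 105 for the remaining 6 same-group pairs and 195 to 284 for a NIC-Carm1 with a NIC-Prmt6 library. Whether such a pair is 1 sample prepared again is not given in the labels and was not tested. The 10-library fit counts all libraries (n = 3 and n = 2), and its p-values are too small if they are repeats, so the main counts are also given with each pair averaged. That fit has n = 2 in NIC-Carm1 and a single NIC-Prmt6 library, whose spread is taken from the other genotypes. NIC-Carm1 replicate 1 stood apart from the other NIC-Carm1 libraries in its milk gene reads, as given below. Each gene's adjusted p from limma on all 10 libraries is followed by the adjusted p with the pairs averaged, written as "averaged". A positive log2 fold change, taken on log2(value + 1), means a higher level in NIC-Carm1, and SE is its standard error.

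Of the methyltransferases themselves, Prmt6 differed between the groups and Carm1 was not shown to differ. Prmt6 (chromosome 3, 110246109 to 110250998, minus strand, GRCm38) had a normalised read count of 329, 224 and 239 in NIC-Carm1 replicates 1, 2 and 3 and 873 and 909 in NIC-Prmt6 replicates 1 and 2. All NIC-Carm1 libraries were below both NIC-Prmt6 libraries (log2 fold change -1.77 ± 0.19, adjusted p = 0.000169, 0.0148 averaged), and the call held in every alternative tried. Carm1 (chromosome 9, 21546894 to 21592623, plus strand) was at 2479, 2324 and 2146 in the libraries labelled NIC-Carm1 and at 2295 and 2432 in NIC-Prmt6, overlapping ranges with a log2 fold change of -0.03 ± 0.09 (95% interval -0.24 to 0.18, adjusted p = 0.814). Its level therefore does not check the NIC-Carm1 label against NIC-Prmt6, and the group names below mean the libraries labelled so. In NIC, Prmt6 was at 387 and 451, above all NIC-Carm1 libraries and below both NIC-Prmt6 libraries, and in NIC-Prmt1 at 272 to 355. Carm1 was at 1556 and 1567 in NIC, below all libraries of the other genotypes, with NIC-Prmt1 at 2025 to 2303. The labels do not say if transgene reads count toward the mouse gene. Prmt1, the most active enzyme of the family in most cells, stood at 2916, 2362 and 2516 in NIC-Carm1 and 2669.5 and 2720.5 in NIC-Prmt6 (adjusted p = 0.717). Of the 13 methyltransferases and partners tested, 5 were higher in NIC-Carm1 and 1, Prmt6, was lower, where 18.4% of all genes tested were higher and 20.9% lower. The higher ones were Prmt5 (log2 fold change 0.39 ± 0.10, adjusted p = 0.01, 0.127 averaged), which makes symmetric marks, its partner Clns1a (0.26, adjusted p = 0.0409, 0.271 averaged), Prmt7, Prmt8 and Prmt10, and none of the 5 passed with the pairs averaged. With 1 of the 5 compared libraries left out, 0 to 4 were higher, the fewest without NIC-Prmt6 replicate 1. Prmt8 rests on few reads, with values of 11.3, 11.5 and 27.2 in NIC-Carm1 and 0 and 2.58 in NIC-Prmt6.

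Across all genes, 6157 differed between the groups (39.2% of those tested), of which 2882 were higher in NIC-Carm1 (18.4%) and 3275 were lower (20.9%). Upper-quartile scaling, which moves the median of all genes to 0.06, turned the balance to 3536 higher and 2845 lower. A difference of at least 2-fold was found for 785 of the higher and 1423 of the lower genes. With the near-identical pairs averaged, 1262 genes passed (8.04%), 268 higher (1.71%) and 994 lower (6.33%), all of them among the 6157. Leaving out NIC-Carm1 replicate 1 as well left 387, with 32 higher and 355 lower; that fit sets a single value against a single value, with the spread taken from NIC and NIC-Prmt1 alone, and it is 1 of the alternatives behind the words "every alternative". Leaving out NIC-Prmt6 replicate 1 or 2 alone left 2575 or 2673. The median log2 fold change over all genes was -0.0025. The 18.4% higher and 20.9% lower are the shares to set beside each list count below, and a count near them is not particular to its list. Every NIC-Carm1 library was above both NIC-Prmt6 libraries in 34.6% of all genes tested and below both in 35.2%, so groups that do not overlap are common here. In 56.8% of the 3275 lower genes both NIC-Prmt6 libraries were above all 8 other libraries of the series, and in 28.4% all 3 NIC-Carm1 libraries were below all 7 others. For the 2882 higher genes, the NIC-Prmt6 libraries were below all others in 41.2% and the NIC-Carm1 libraries above all others in 29.1%. Over all genes tested these shares were 15.5%, 7.58%, 11.1% and 7.39% in that order. The called genes were chosen for their direction, which by itself raises the shares among them above those over all genes. How much of the gap comes from that choice was not tested.

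The largest rises, chosen among genes that passed in both fits and whose groups did not overlap, included milk and mammary differentiation genes. Csn1s1 (chromosome 5, 87666208 to 87682578, plus strand), the alpha-S1 casein gene, was at 208152, 11428 and 11674 in NIC-Carm1 and 768 and 677 in NIC-Prmt6 (log2 fold change 5.39 ± 1.11, adjusted p = 0.00473, 0.044 averaged). All 3 NIC-Carm1 libraries were above both NIC-Prmt6 libraries, with replicate 1 far above its own group, and without it and with pairs averaged the adjusted p was 0.069. Pinc (chromosome 1, 73390775 to 73407569, minus strand), a long noncoding RNA known from the pregnancy-primed mammary gland, was at 1889, 3297 and 3426 against 302 and 282 (log2 fold change 3.24 ± 0.38, adjusted p = 0.000288, 0.0177 averaged). Pdk4, a kinase that inhibits pyruvate dehydrogenase, was at 3533, 3177 and 3258 against 505 and 525 (log2 fold change 2.69 ± 0.16, adjusted p = 1.65e-05, 0.00449 averaged). Igfals, which stabilises IGF in serum complexes, was at 2401, 2421 and 2325 against 248 and 224 (log2 fold change 3.33 ± 0.31, adjusted p = 9.27e-05, 0.0101 averaged). The calls for Pinc, Pdk4, Igfals and Eya1 (log2 fold change 2.86), a transcriptional cofactor of organ development, held in every alternative. Rdh12, a retinol dehydrogenase (3.88, adjusted p = 0.000299, 0.0183 averaged), Fzd9, a Wnt receptor (3.45, adjusted p = 0.00142, 0.0406 averaged), and C5ar2, a complement receptor (3.15, adjusted p = 0.000799, 0.0327 averaged), ended when replicate 1 was left out and pairs were averaged (adjusted p = 0.0571, 0.12 and 0.0756).

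The largest falls, chosen by the same rule, included a stromal growth factor and genes of the hyaluronan matrix. Fgf10 (chromosome 13, 118669791 to 118792115, plus strand), the mesenchymal growth factor that acts on the epithelial receptor FGFR2, was at 54.1, 223 and 194 in NIC-Carm1 and 2066 and 2058 in NIC-Prmt6 (log2 fold change -3.94 ± 0.49, adjusted p = 0.000384, 0.0134 averaged). Its NIC libraries were at 83.2 and 133 and its NIC-Prmt1 libraries at 202 to 241, so the NIC-Prmt6 libraries were the high ones. The hyaluronan synthase Has1 (chromosome 17, 17843323 to 17855205, minus strand) was at 372, 598 and 642 against 5956 and 6034 (log2 fold change -3.52 ± 0.22, adjusted p = 1.82e-05, 0.00449 averaged), with NIC at 799 and 1092. Tnfaip6, whose product cross-links hyaluronan, was at 511, 647 and 670.1 against 6389.5 and 6228 (log2 fold change -3.38 ± 0.15, adjusted p = 5.54e-06, 0.00213 averaged), and Ptx3, a pentraxin that joins the same matrix, was at 501, 725 and 657 against 5213 and 5360.1 (log2 fold change -3.09 ± 0.16, adjusted p = 9.79e-06, 0.00345 averaged). These 4 genes were chosen as falls without overlap that passed in both fits, so those traits were set by the choice. Their calls also held in every other alternative. Bmper, a BMP-binding protein (-3.30, adjusted p = 0.000233, 0.0117 averaged), Osr2, a transcription factor of mesenchyme (-3.05, adjusted p = 1.14e-05, 0.00449 averaged), Ifi205 (-3.22, adjusted p = 8.92e-05, 0.00946 averaged), Dscam (-3.92, adjusted p = 0.000223, 0.0146 averaged) and Tmeff2 (-3.06, adjusted p = 0.00107, 0.0215 averaged) were lower in every alternative too. Rspo4, a secreted enhancer of Wnt signalling, was at 0, 6.58 and 5.82 in NIC-Carm1 and 149 and 173 in NIC-Prmt6 (log2 fold change -5.44 ± 0.92, adjusted p = 0.00176, 0.037 averaged), and ended without replicate 1 and with pairs averaged (adjusted p = 0.097).

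**Figure D1:**
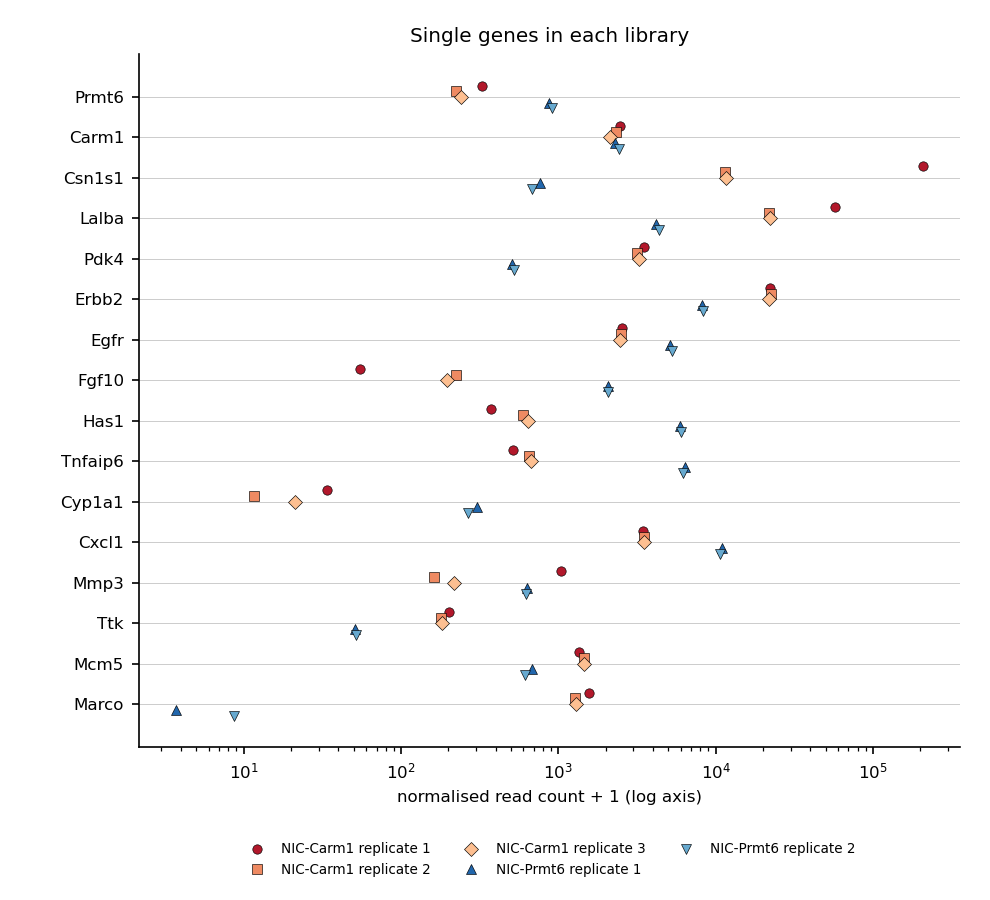
Normalised read count + 1 (log axis) of 16 genes in each of the 5 libraries, 1 symbol per library. Both NIC-Prmt6 libraries lie close together in most genes; Fgf10, Has1 and Tnfaip6 are lower in all NIC-Carm1 libraries, Csn1s1 and Lalba are higher in NIC-Carm1 replicate 1 than in replicates 2 and 3, and Carm1 and Mmp3 overlap between the groups.

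Genes of milk secretion were higher in NIC-Carm1. Of 15 tested, 9 were higher and none was lower, and 5 of the 9 passed with pairs averaged, with a median log2 fold change of 2.46. DESeq2 on recovered reads gave 5 higher, with a median of 4.32, and no adjusted p for 7 of the 15. Their reads summed to 67779, 25078 and 25607 CPM (reads scaled to the library total) in NIC-Carm1 replicates 1, 2 and 3 and to 7160.1 and 7192 in NIC-Prmt6, so all NIC-Carm1 libraries were higher and replicate 1 was 2.67 times the mean of the other NIC-Carm1 libraries. In NIC the sums were 23004 and 30815 CPM, and in NIC-Prmt1 11855, 16569 and 17499. The alpha-lactalbumin gene Lalba, needed for lactose synthesis, was at 57763, 21854 and 22248 against 4172 and 4340.02 (log2 fold change 2.84 ± 0.54, adjusted p = 0.00326, 0.048 averaged). Trf, the transferrin gene, was at 551348, 382989 and 392322 against 88654 and 89776 (log2 fold change 2.29 ± 0.35, adjusted p = 0.00105, 0.044 averaged). The kappa-casein gene Csn3 was at 156632, 95561 and 98188 against 23904 and 23204 (log2 fold change 2.27 ± 0.27, adjusted p = 0.000288, 0.0164 averaged). Glycam1, which encodes a mucin of milk, was at 15987, 5057 and 4969 against 9.96 and 11.2, a large difference whose adjusted p of 0.00472 became 0.074 on averaging. Replicate 1 was the extreme library in the following genes. Wap, the whey acidic protein gene of late secretion, was at 5937, 62.5 and 55.3 in NIC-Carm1 and 52.5 and 46.4 in NIC-Prmt6 (adjusted p = 0.258). Csn2, the beta-casein gene, was at 358442, 6825 and 6751 against 1148 and 1134 (log2 fold change 4.48 ± 1.58, adjusted p = 0.0466, 0.14 averaged). Without NIC-Carm1 replicate 1, 8 of the 15 were still higher, with a median of 2.04, and with pairs averaged as well none passed.

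Luminal progenitor genes also ran higher in NIC-Carm1. Of 8 tested, 6 were higher and 1 was lower, and 3 of the 6 held on averaging. Elf5, the transcription factor that drives the milk-producing lineage, was at 11707, 6764 and 6765 in NIC-Carm1 and 3206 and 3277 in NIC-Prmt6 (log2 fold change 1.33 ± 0.24, adjusted p = 0.00246, 0.0376 averaged). Sox10 was at 11617, 9557 and 9171 against 4713 and 4765 (log2 fold change 1.09 ± 0.14, adjusted p = 0.000419, 0.0214 averaged), and the epithelial transcription factor Ehf was at 8994, 7494 and 7593 against 4544 and 4389.9 (log2 fold change 0.84 ± 0.14, adjusted p = 0.00141, 0.0423 averaged). In each of these 3 genes every NIC-Carm1 library was above both NIC-Prmt6 libraries, and each call ended when replicate 1 was left out and pairs were averaged (adjusted p = 0.0924, 0.0701 and 0.131). Kit, the stem cell factor receptor, was higher (0.73, adjusted p = 0.00513, 0.108 averaged), and Aldh1a3, a retinal dehydrogenase, was the lower member (-1.27, adjusted p = 0.0217, 0.192 averaged). The summed reads of these genes were 2487, 2209.5 and 2214 CPM in NIC-Carm1 and 1186 and 1191 CPM in NIC-Prmt6.

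General epithelial markers split in direction. Among 12 luminal genes 4 were higher (2 without NIC-Prmt6 replicate 1) and 1 was lower, with a median of -0.01. The keratin gene Krt8 was at 54459.7, 36003 and 36525 in NIC-Carm1 and 46058 and 46545 in NIC-Prmt6 (adjusted p = 0.626), and E-cadherin, Cdh1, was at 11494, 11433 and 11539 against 11646 and 11410.00 (adjusted p = 0.978). The epithelial splicing factor Esrp1 (0.78, adjusted p = 0.000581, 0.0324 averaged) and the transcription factor Grhl2 (0.59, adjusted p = 0.000384, 0.0354 averaged) were higher. Of 12 basal genes 1 was higher and 1 lower, and neither held on averaging. Of 11 genes of hormone-sensing cells 1 was higher (9.09%) and 3 were lower (27.3%). The shares of all genes tested were 18.4% and 20.9%. Pgr, the progesterone receptor gene, was at 1829, 1248 and 1241 in NIC-Carm1 and 3766 and 3706 in NIC-Prmt6 (log2 fold change -1.40 ± 0.17, adjusted p = 0.000361, 0.0217 averaged), a fall that held in every alternative; its NIC libraries were at 1357 and 1364 and its NIC-Prmt1 libraries at 3519.9 to 4718. Esr1, the estrogen receptor gene, was at 629.6, 1273 and 1364 against 1864 and 1899.9 (adjusted p = 0.051), with replicate 1 the lowest. The hormone-sensing genes summed to 923, 1553 and 1557 CPM in NIC-Carm1 and 1536 and 1525 in NIC-Prmt6, so replicate 1 was the low library.

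**Figure D2:**
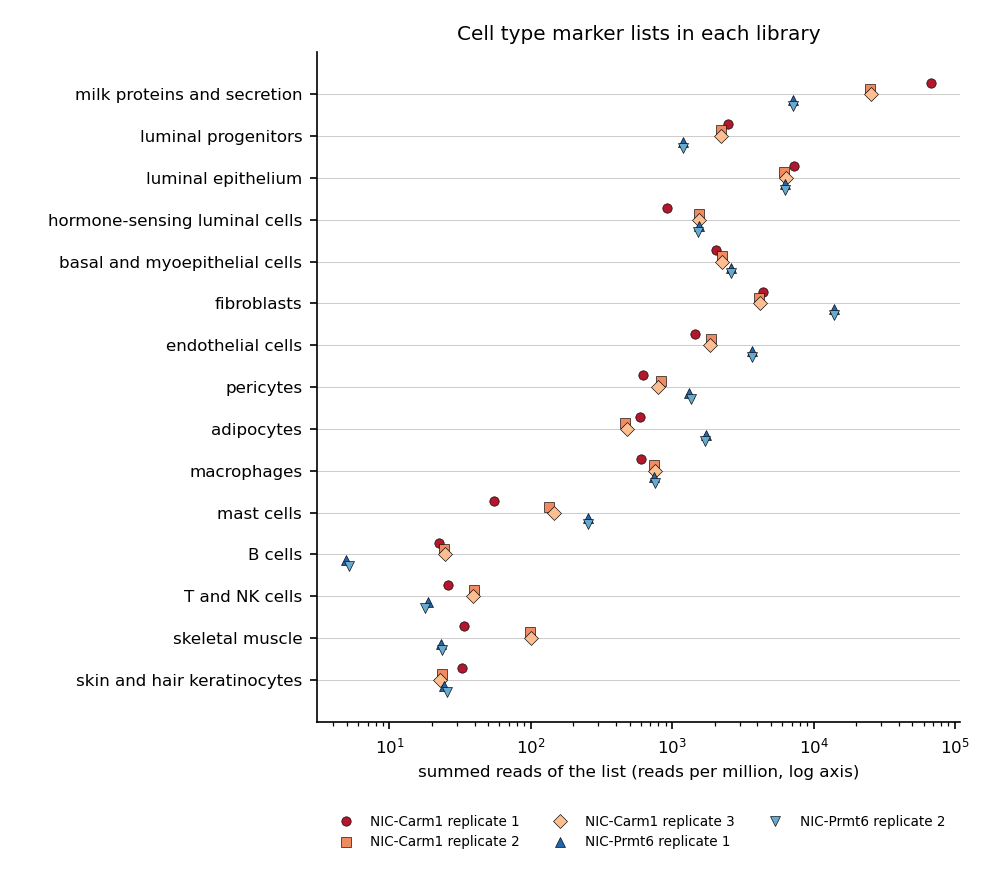
Summed CPM (log axis) of 15 cell type marker lists in each of the 5 libraries, 1 point per library. Milk and luminal progenitor genes are higher in all NIC-Carm1 libraries, fibroblast, endothelial, pericyte and adipocyte genes are higher in both NIC-Prmt6 libraries, and luminal and keratinocyte genes lie close together.

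The ErbB receptors, one of which is the oncogene of the NIC background, split in direction. Erbb2 (chromosome 11, 98412470 to 98437716, plus strand) was at 22031, 22403 and 21995 in NIC-Carm1 and 8242 and 8372 in NIC-Prmt6 (log2 fold change 1.41 ± 0.27, adjusted p = 0.00322, 0.0704 averaged), with NIC at 9343 and 15110.4 and NIC-Prmt1 from 5714 to 11187. The 3 NIC-Carm1 libraries lay within a narrow range above all others. The labels do not say if reads of the Neu transgene count toward Erbb2. Egfr was at 2524, 2500.2 and 2467 against 5149 and 5311 (log2 fold change -1.07 ± 0.09, adjusted p = 8.46e-05, 0.0119 averaged), lower in NIC-Carm1 in every alternative. Erbb3 (0.60, adjusted p = 0.00995, 0.126 averaged) and Erbb4 (0.94, adjusted p = 0.0155, 0.175 averaged) were higher. Without NIC-Prmt6 replicate 1 or 2, 1 of the 3 higher receptors passed. Of 10 ligands of these receptors 3 were higher (0 and 1 without NIC-Prmt6 replicate 1 and 2) and 5 lower. Hbegf, an EGFR ligand, was at 862, 813 and 825 against 2632 and 2504 (log2 fold change -1.62 ± 0.15, adjusted p = 8.92e-05, 0.011 averaged), and Epgn, another, was also lower (-1.98, adjusted p = 0.000626, 0.0312 averaged). Areg, the amphiregulin gene induced by estrogen, was lower as well (-0.53, adjusted p = 0.00203, 0.0692 averaged), while Egf (1.89, adjusted p = 0.0199, 0.181 averaged) and the neuregulin gene Nrg2 (1.94, adjusted p = 0.00386, 0.0675 averaged) were higher.

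Genes of the stroma were lower in NIC-Carm1, fibroblast genes among them. All 13 fibroblast genes tested were lower, all 13 also with pairs averaged and 11 of 13 with NIC-Carm1 replicate 1 left out in addition, with a median log2 fold change of -1.91. Lum, the lumican gene, was at 1669, 2435 and 2446 in NIC-Carm1 and 11922 and 11995 in NIC-Prmt6 (log2 fold change -2.47 ± 0.17, adjusted p = 2.09e-05, 0.00449 averaged). Dcn, the decorin gene, was at 8392, 11585 and 12120.2 against 43219 and 43249 (log2 fold change -2.03 ± 0.17, adjusted p = 5.87e-05, 0.007 averaged), and Pdgfra, a receptor for PDGF, was at 1789, 1367 and 1461 against 4856 and 5093 (log2 fold change -1.70 ± 0.16, adjusted p = 9.27e-05, 0.011 averaged). For each the groups were far apart and the near-identical NIC-Prmt6 libraries were the high ones. The fibroblast genes summed to 4401, 4112 and 4158 CPM in NIC-Carm1 and 13974 and 13957 CPM in NIC-Prmt6, with 3476 and 4306 in NIC and 8002, 6108 and 6904 in NIC-Prmt1. In these bulk samples, fewer cells of a type and less RNA per cell cannot be told apart.

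Collagens and genes of mesenchymal transition followed the same direction. Of 14 collagen genes outside the fibroblast list, 10 were lower and none was higher, and 7 held on averaging. Col18a1, a collagen of basement membranes, was at 2948, 3386 and 3223 in NIC-Carm1 and 11148 and 11482 in NIC-Prmt6 (log2 fold change -1.83 ± 0.18, adjusted p = 0.000128, 0.0117 averaged), and the microfibrillar Col6a1 was at 6714, 5778 and 5697 against 20208 and 20777 (log2 fold change -1.76 ± 0.14, adjusted p = 4.84e-05, 0.00892 averaged). Col7a1, which anchors the epithelial basement membrane, was at 3169.5, 1839.8 and 1936 against 2179 and 2116 (adjusted p = 0.831). Of 12 mesenchymal transition genes 11 were lower, 9 also on averaging, with a median of -1.58. Fn1, the fibronectin gene, was at 7890.01, 15652 and 14768 against 57822 and 59910.5 (log2 fold change -2.27 ± 0.27, adjusted p = 0.000299, 0.0125 averaged), and the transcription factor gene Twist1 was at 104, 142 and 89.2 against 588 and 557 (log2 fold change -2.37 ± 0.22, adjusted p = 9.14e-05, 0.00627 averaged). Snai1 (-1.61, adjusted p = 9.48e-05, 0.0114 averaged) and Vim (-1.62, adjusted p = 0.000557, 0.0196 averaged) were lower too. Fibroblasts express these genes as well, and the part that the fibroblast marker sums play in these differences was not tested.

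The proteases and inhibitors that remodel this matrix were lower for 10 of 15, with none higher and 6 held on averaging. Plau, the urokinase gene, was at 1031, 1009.9 and 1233 in NIC-Carm1 and 3214 and 3459 in NIC-Prmt6 (log2 fold change -1.62 ± 0.10, adjusted p = 1.82e-05, 0.00449 averaged), its receptor gene Plaur was at 694, 759 and 792 against 2139.8 and 1987 (log2 fold change -1.46 ± 0.18, adjusted p = 0.000348, 0.0195 averaged), and Plat, the tissue plasminogen activator gene, was at 1010.3, 923 and 962 against 2797 and 2889 (log2 fold change -1.56 ± 0.11, adjusted p = 3.15e-05, 0.00627 averaged). Every NIC-Carm1 library was below both NIC-Prmt6 libraries in these 3 genes. Mmp3, a stromelysin, was at 1044, 161 and 216 against 633 and 627 (adjusted p = 0.277), with NIC-Carm1 replicate 1 above the NIC-Prmt6 libraries and replicates 2 and 3 below. Of 18 integrins and laminins 7 were lower and 2 higher. Itga5, the fibronectin receptor subunit (-1.72, adjusted p = 3.8e-05, 0.00627 averaged), and Lamb1, a laminin chain (-1.47, adjusted p = 0.000105, 0.0123 averaged), held in every alternative, while the epithelial Itga6 was at 8785, 7719 and 7886 against 8618 and 8833 (adjusted p = 0.399).

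Vessel and fat genes were lower as well. All 10 endothelial genes tested were lower in NIC-Carm1, 7 of them on averaging, with a median of -1.25. Kdr, the main VEGF receptor, was at 2512, 2248 and 2230.5 in NIC-Carm1 and 6612 and 6793 in NIC-Prmt6 (log2 fold change -1.53 ± 0.14, adjusted p = 9.14e-05, 0.0114 averaged), and Flt1, another VEGF receptor, was at 1794, 2388 and 2377 against 7170.1 and 7369 (log2 fold change -1.75 ± 0.16, adjusted p = 9.27e-05, 0.00925 averaged). The endothelial genes summed to 1456, 1883 and 1849.8 CPM against 3658 and 3671 CPM, with the 2 groups well separated. Of 8 pericyte genes 7 were lower, 4 of them on averaging, such as Abcc9 (-1.34, adjusted p = 0.00025, 0.0182 averaged). Of 13 adipocyte genes 10 were lower, 6 without any 1 library other than NIC-Carm1 replicate 1, and 5 held on averaging. Pparg, the master regulator of fat cells, was at 332, 290.3 and 351 against 1296 and 1228 (log2 fold change -1.96 ± 0.18, adjusted p = 8.92e-05, 0.00985 averaged), and Fabp4, a fatty acid binding protein of fat cells and capillaries, was at 8517, 8119 and 8712 against 28266 and 27642 (log2 fold change -1.73 ± 0.17, adjusted p = 0.000137, 0.0141 averaged). The fat hormone gene Adipoq was at 148, 21.4 and 15.5 against 227 and 259, where NIC-Carm1 replicate 1 lay nearer the NIC-Prmt6 level than replicates 2 and 3 (log2 fold change -2.68 ± 0.89, adjusted p = 0.0373, 0.274 averaged).

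Genes of several signalling pathways that act between stroma, vessels and epithelium were lower in NIC-Carm1. Of 12 Notch genes 10 were lower and none higher, 4 of them on averaging and 5 without NIC-Prmt6 replicate 1 or 2. Dll4, a Notch ligand of growing vessels (chromosome 2, 119325784 to 119335962, plus strand), was at 715, 744 and 788 in NIC-Carm1 and 3057 and 3026 in NIC-Prmt6 (log2 fold change -2.02 ± 0.10, adjusted p = 9.79e-06, 0.00413 averaged), with NIC at 1324 and 1419. The Notch target Nrarp was at 241, 296 and 342 against 1011 and 950.4 (log2 fold change -1.75 ± 0.17, adjusted p = 0.000123, 0.0102 averaged), and Notch4, an endothelial receptor, was lower (-1.74, adjusted p = 0.000222, 0.0142 averaged), as was Heyl (-1.29, adjusted p = 0.00236, 0.0487 averaged). Hey1, a further target, which stands in the luminal progenitor list, went the other way, at 3937, 5794 and 5664 against 2421 and 2487 (log2 fold change 1.04 ± 0.18, adjusted p = 0.00207, 0.0624 averaged). In the TGF-beta and BMP pathway 12 of 18 genes were lower and 3 higher, with 5 of the lower genes held on averaging and 7 without NIC-Prmt6 replicate 1. The BMP target Id1 was at 287, 428 and 362 against 1481 and 1534 (log2 fold change -2.09 ± 0.20, adjusted p = 0.000103, 0.00902 averaged), and Id3 was at 1157, 1483 and 1584 against 5119.9 and 5248 (log2 fold change -1.89 ± 0.16, adjusted p = 5.86e-05, 0.00676 averaged). Id2, of the same family, was at 3570.5, 4703 and 4990.4 against 2344 and 2401 and was higher (log2 fold change 0.88 ± 0.23, adjusted p = 0.0145, 0.167 averaged). The receptor Tgfbr2 (-0.94, adjusted p = 0.000765, 0.0256 averaged) and the inhibitory Smad7 (-1.14, adjusted p = 0.000924, 0.0357 averaged) were lower, and the ligand Tgfb3 was higher (0.52, adjusted p = 0.00403, 0.113 averaged). The endothelial and fibroblast marker sums above moved with these genes, and their part was not tested.

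Of 10 FGF genes 6 were lower and none higher, 3 of them on averaging: Fgf10, the vessel and bone growth factor Fgf18 (-2.72, adjusted p = 0.002, 0.0363 averaged) and the receptor Fgfr3 (-1.60, adjusted p = 0.000461, 0.0209 averaged). Fgfr2, the epithelial receptor for Fgf10, was at 2405, 6119.7 and 6168 in NIC-Carm1 and 5321 and 5209 in NIC-Prmt6 (adjusted p = 0.645), with NIC-Carm1 replicate 1 the lowest and replicates 2 and 3 the highest. Of 16 Wnt genes 6 were lower and 1 higher. Axin2, a general target of canonical Wnt signalling, was at 265, 252 and 224 against 516 and 543 (log2 fold change -1.10 ± 0.16, adjusted p = 0.000795, 0.0372 averaged). The secreted inhibitor Sfrp2 (-1.17, adjusted p = 0.000735, 0.0316 averaged) and the ligand Wnt11 (-1.37, adjusted p = 0.00117, 0.0315 averaged) were lower on averaging too. Rnf43, a membrane ubiquitin ligase that removes Wnt receptors, was the higher member, at 2039, 1981 and 1851 against 829 and 892 (a mean 2.27-fold higher in NIC-Carm1, adjusted p = 0.000103, 0.0117 averaged), and its call held in every alternative.

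Mitosis genes were higher in NIC-Carm1. Of 18 tested, 17 were higher and none lower, with a median log2 fold change of 1.61 and a range of 1.29 to 1.87, but 1 of the 17, Ttk, passed with pairs averaged. Without NIC-Prmt6 replicate 1 or 2, 13 or 11 were higher. Ttk, a kinase of the spindle checkpoint, was at 202, 179 and 180.4 in NIC-Carm1 and 49.8 and 50.7 in NIC-Prmt6 (log2 fold change 1.87 ± 0.27, adjusted p = 0.000847, 0.0357 averaged). Mki67, which encodes the proliferation marker Ki-67, was at 4277, 4095 and 4025 against 1523 and 1413 (log2 fold change 1.49 ± 0.36, adjusted p = 0.0103, 0.119 averaged), and Cdk1, the mitotic kinase, was at 823, 791 and 834 against 259 and 261 (log2 fold change 1.65 ± 0.42, adjusted p = 0.0125, 0.133 averaged). In all 3 genes the groups did not overlap and each group was narrow, though NIC-Prmt6 is a near-identical pair and NIC-Carm1 holds another. The mitosis genes summed to 582, 589.8 and 598 CPM in NIC-Carm1 and 188 and 189 CPM in NIC-Prmt6, with 329 and 361 in NIC and 129.8, 382 and 174 in NIC-Prmt1. NIC-Prmt1 replicate 2 was thus far above the other NIC-Prmt1 libraries, and that spread enters the pooled error of the test. Ccnb2, the member that did not pass, was at 489, 511 and 529 against 190.2 and 227 (adjusted p = 0.0756).

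**Figure D3:**
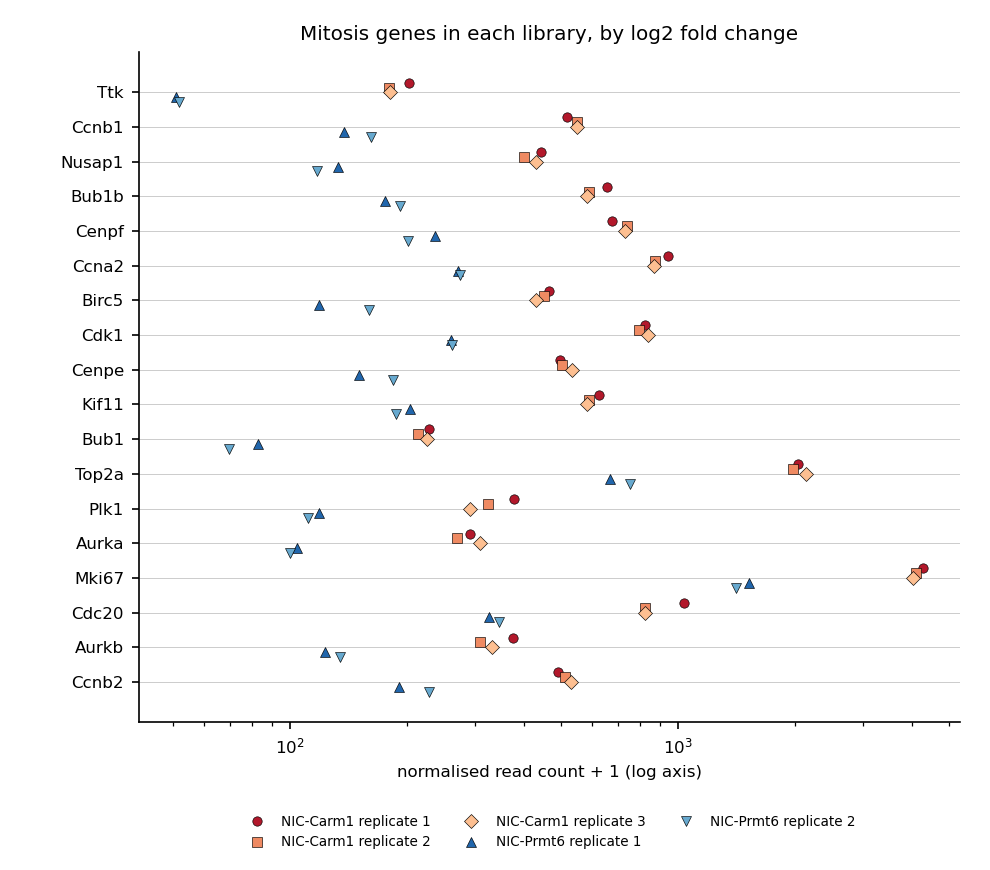
Normalised read count + 1 (log axis) of the 18 mitosis genes in each of the 5 libraries, ordered by log2 fold change. In every gene the 3 NIC-Carm1 libraries lie above both NIC-Prmt6 libraries, and the libraries of a group lie close together.

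Promoters of mitosis genes are known to carry CCAAT boxes, bound by NF-Y, and a cell cycle homology element with the core letters TTTGAA. The letters were searched on both strands in the 250 bases before each gene start in RefSeq windows (GRCm38.p6), where 16 of the 18 genes had a window. CCAAT was found in 14 of the 16 windows (87.5%) and TTTGAA in 6 (37.5%), against 33.8% and 16% of all 32851 windows of the same length; a match is a description of the letters and not a shown site. Shown are the 3 genes with the smallest adjusted p, Ttk (chr9:83834439-83834688, plus strand), Aurka (chr2:172370571-172370820, minus strand) and Cenpe (chr3:135212313-135212562, plus strand), and Kif11 (chr19:37376132-37376381, plus strand), chosen because it holds both motifs. They are written 5′ to 3′ up to the base before the gene start, with matches in capitals.
Ttk: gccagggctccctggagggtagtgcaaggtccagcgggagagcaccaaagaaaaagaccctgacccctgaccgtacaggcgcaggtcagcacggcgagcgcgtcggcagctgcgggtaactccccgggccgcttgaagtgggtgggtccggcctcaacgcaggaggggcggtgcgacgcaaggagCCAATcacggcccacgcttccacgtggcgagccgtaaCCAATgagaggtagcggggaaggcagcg
Aurka: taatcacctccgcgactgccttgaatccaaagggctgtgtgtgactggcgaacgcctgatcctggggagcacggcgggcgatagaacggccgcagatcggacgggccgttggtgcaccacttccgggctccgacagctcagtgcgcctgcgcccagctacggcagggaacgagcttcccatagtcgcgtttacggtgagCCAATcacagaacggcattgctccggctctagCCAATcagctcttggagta
Cenpe: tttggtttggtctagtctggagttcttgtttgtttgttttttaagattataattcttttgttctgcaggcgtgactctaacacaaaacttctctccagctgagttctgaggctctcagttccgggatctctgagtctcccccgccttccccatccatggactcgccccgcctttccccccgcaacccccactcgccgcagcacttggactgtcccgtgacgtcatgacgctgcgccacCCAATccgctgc
Kif11: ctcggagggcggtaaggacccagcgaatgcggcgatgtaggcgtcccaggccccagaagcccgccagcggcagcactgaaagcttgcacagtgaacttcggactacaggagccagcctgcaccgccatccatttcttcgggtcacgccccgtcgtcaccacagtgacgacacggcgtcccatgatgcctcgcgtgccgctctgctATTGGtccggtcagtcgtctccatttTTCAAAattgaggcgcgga

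In these windows the CCAAT letters of Ttk start 65 and 28 bases before the gene start, those of Aurka 51 and 19, that of Cenpe 12 and that of Kif11 45, and Kif11 has TTTGAA 19 bases before it. Aurka, a kinase of spindle poles, was at 291, 268 and 308 in NIC-Carm1 and 103 and 98.9 in NIC-Prmt6 (a mean 2.86-fold higher in NIC-Carm1, adjusted p = 0.00222, 0.0588 averaged). Cenpe, a kinetochore motor, was at 496, 500.04 and 530.5 against 149 and 183 (log2 fold change 1.61 ± 0.28, adjusted p = 0.00223, 0.0571 averaged). Kif11, the motor that separates spindle poles, was at 623, 589.7 and 581 against 203 and 187 (log2 fold change 1.61 ± 0.34, adjusted p = 0.00551, 0.0888 averaged). All 3 were higher in every NIC-Carm1 library than in both NIC-Prmt6 libraries.

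DNA replication genes were also higher, by less. Of 19 tested, 16 were higher and 1 lower, with a median of 0.76, and 3 held on averaging, all subunits of the MCM helicase. Without NIC-Prmt6 replicate 1 or 2, 9 were higher. Mcm5 was at 1349, 1466 and 1456 in NIC-Carm1 and 684 and 613 in NIC-Prmt6 (log2 fold change 1.13 ± 0.17, adjusted p = 0.000974, 0.0386 averaged), Mcm2 at 1164, 1254 and 1246 against 672 and 685 (log2 fold change 0.85 ± 0.12, adjusted p = 0.0008, 0.0415 averaged) and Mcm7 at 1240.1, 1384 and 1411 against 816 and 765 (log2 fold change 0.76 ± 0.10, adjusted p = 0.000414, 0.0315 averaged). The lower member was Pcna, the sliding clamp, at 3093, 3279 and 3458 against 3866 and 3809 (log2 fold change -0.23 ± 0.08, adjusted p = 0.0453, 0.27 averaged), a call that ended with any 1 of the 5 compared libraries left out.

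Among p53 targets the genes that passed in the 10-library limma fit were lower in NIC-Carm1. DESeq2, upper-quartile scaling and leaving out NIC-Carm1 replicate 1 each gave 1 higher target. Of 17 p53 targets 10 were lower and none higher, and 6 held on averaging. Cdkn1a, the gene of the CDK inhibitor p21 and a known PRMT6 target (chromosome 17, 29090976 to 29100727, plus strand), was at 2959, 3602 and 3336 in NIC-Carm1 and 7531 and 7478 in NIC-Prmt6 (log2 fold change -1.19 ± 0.10, adjusted p = 5.39e-05, 0.00891 averaged). In NIC it was at 8651 and 9077, above both groups, and in NIC-Prmt1 at 5405 to 5901. Gdf15, a secreted stress factor, was at 459.5, 569 and 555 against 2202 and 2215 (log2 fold change -2.07 ± 0.21, adjusted p = 0.000157, 0.0123 averaged), again with NIC high at 2511 and 2690.02. The kinase gene Plk2 (-1.02, adjusted p = 0.000116, 0.0159 averaged) and the death receptor gene Tnfrsf10b (-1.25, adjusted p = 0.000261, 0.0196 averaged) were lower in every alternative, while the death effector Bbc3 was at 488, 310.1 and 256 against 332 and 323 (adjusted p = 0.909). Of 14 D cyclins, CDKs and CDK inhibitors 5 were lower and 1 higher, with a median of -0.16. Of the 5, 2 held on averaging, and under upper-quartile scaling 3 were higher and 3 lower. Without NIC-Prmt6 replicate 1 or 2, 3 or 2 were lower. Ccnd2, a D cyclin, was at 554, 1039 and 1004 against 2622 and 2677 (log2 fold change -1.67 ± 0.24, adjusted p = 0.000737, 0.0183 averaged), and Cdkn1c, the p57 inhibitor gene, was at 228, 229 and 258 against 744 and 725 (log2 fold change -1.62 ± 0.20, adjusted p = 0.000352, 0.021 averaged). Ccnd1, the D cyclin that ErbB2 tumours depend on, was at 4627, 5381 and 5073 against 4390.1 and 4446 (adjusted p = 0.173).

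Some inflammatory and immediate early genes were lower in NIC-Carm1. Of 21 NF-kB and inflammatory genes 10 were lower and 1 higher, and 5 of the lower held on averaging. The chemokine gene Ccl2 was at 591, 557 and 505 in NIC-Carm1 and 4018 and 4046 in NIC-Prmt6 (log2 fold change -2.87 ± 0.19, adjusted p = 1.84e-05, 0.00522 averaged), and the cytokine gene Il6 was at 2279.7, 2863 and 2853 against 8243 and 8296 (log2 fold change -1.64 ± 0.11, adjusted p = 2.09e-05, 0.00548 averaged). Cxcl1, a chemokine for neutrophils, was at 3439.8, 3487 and 3494 against 10976 and 10734 (log2 fold change -1.64 ± 0.14, adjusted p = 5.73e-05, 0.00925 averaged), and was higher still in NIC, at 14391 and 16951. Ccl7 (-2.48, adjusted p = 3.23e-05, 0.00605 averaged) and Cxcl2 (-1.16, adjusted p = 3.85e-05, 0.007 averaged) were lower in every alternative. The higher member was Lcn2, the lipocalin gene of luminal cells, at 63506, 60646 and 59784 against 21953 and 22581 (log2 fold change 1.46 ± 0.27, adjusted p = 0.00274, 0.0685 averaged). Of 19 immediate early genes 9 were lower and 1 higher, with 7 of the lower held on averaging and 2 with replicate 1 left out as well. Klf4 was at 6175, 6591 and 6485 against 19079 and 18543 (log2 fold change -1.55 ± 0.14, adjusted p = 8.92e-05, 0.0112 averaged), Egr1 at 31664, 53122 and 50859.6 against 108542 and 105854 (log2 fold change -1.28 ± 0.23, adjusted p = 0.00239, 0.0465 averaged) and Myc at 4362, 4700.2 and 4419 against 9689 and 9845 (log2 fold change -1.12 ± 0.13, adjusted p = 0.000325, 0.0217 averaged). Fos was at 60055, 97768 and 97505 against 101398 and 99774 (adjusted p = 0.342). The fibroblast and endothelial marker sums given above were also lower in NIC-Carm1, and their part in these differences was not tested.

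Heat shock genes were lower as a group. Of 11 tested, 9 were lower and none higher, and 3 held on averaging. Bag3, a cochaperone, was at 3862, 4282 and 4283 in NIC-Carm1 and 10896 and 11097 in NIC-Prmt6 (log2 fold change -1.41 ± 0.11, adjusted p = 5.19e-05, 0.00901 averaged), and Hsph1 was at 5056, 4207 and 4219 against 10506 and 10657 (log2 fold change -1.24 ± 0.15, adjusted p = 0.000318, 0.023 averaged). Hspb1, the small heat shock protein gene, was at 10646, 10910.3 and 10529 against 18678 and 19371 (log2 fold change -0.83 ± 0.16, adjusted p = 0.00317, 0.0817 averaged), while the mitochondrial chaperone Hspd1 was at 7274, 5462 and 5757 against 5636 and 5605 (adjusted p = 0.598). In sum the NIC libraries were higher than both groups, at 25599 and 20177 CPM where NIC-Carm1 had 8689, 8769 and 8461 and NIC-Prmt6 14882 and 15153.

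Interferon-stimulated genes went the other way, with 12 of 21 higher in NIC-Carm1 and 2 lower. None of the 12 held on averaging, and 5 were higher without NIC-Prmt6 replicate 1 or 2. Irf7, the master factor of type I interferon, was at 2457, 3429 and 3533 in NIC-Carm1 and 1174 and 1249 in NIC-Prmt6 (log2 fold change 1.36 ± 0.26, adjusted p = 0.00317, 0.0745 averaged). Oas1a, an antiviral sensor, was at 913, 1081 and 1098 against 349 and 385 (log2 fold change 1.48 ± 0.29, adjusted p = 0.0038, 0.0791 averaged), and Ifit3 was at 318, 553 and 557 against 178 and 171 (log2 fold change 1.39 ± 0.33, adjusted p = 0.00924, 0.135 averaged). In each the NIC-Carm1 libraries were above the NIC-Prmt6 libraries, with replicate 1 the lowest of them. Cxcl10, a chemokine gene that both interferon and NF-kB induce, was lower, at 291, 303 and 269.6 against 680.1 and 704 (log2 fold change -1.26 ± 0.18, adjusted p = 0.000783, 0.0342 averaged). In all, the interferon genes summed to 898, 1250.1 and 1266 CPM in NIC-Carm1 and 707 and 707 CPM in NIC-Prmt6.

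Known elements in the promoters of both lists were searched in the same way. The heat shock core GAANNTTC, which reads the same on both strands, was in 6 of 14 windows of 9 matched heat shock genes (42.9%) and in 6.69% of all windows. The core of the interferon-stimulated response element, GAAA repeated after a gap of 2 bases and searched on both strands with overlapping matches allowed, was in 8 of 17 windows of 15 matched interferon genes (47.1%) and in 2.98% of all windows. No match was found for Bag3 or Irf7, the first genes named for each list. Shown, chosen because they hold a match, are Hspb1 (chr5:135887669-135887918, plus strand), lower in NIC-Carm1, Ifit3 (chr19:34583279-34583528, plus strand), higher, and Cxcl10 (chr5:92348890-92349139, minus strand), the interferon gene that was lower on averaging too, with matches in capitals.
Hspb1: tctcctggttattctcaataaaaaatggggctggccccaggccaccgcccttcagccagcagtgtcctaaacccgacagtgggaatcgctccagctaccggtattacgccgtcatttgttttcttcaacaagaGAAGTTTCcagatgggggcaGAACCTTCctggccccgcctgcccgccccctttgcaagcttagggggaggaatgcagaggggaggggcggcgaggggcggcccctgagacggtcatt
Ifit3: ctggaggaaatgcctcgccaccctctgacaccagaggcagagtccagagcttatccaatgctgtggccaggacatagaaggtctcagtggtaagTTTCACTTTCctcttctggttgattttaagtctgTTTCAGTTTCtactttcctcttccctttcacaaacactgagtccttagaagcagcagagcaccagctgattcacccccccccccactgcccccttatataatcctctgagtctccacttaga
Cxcl10: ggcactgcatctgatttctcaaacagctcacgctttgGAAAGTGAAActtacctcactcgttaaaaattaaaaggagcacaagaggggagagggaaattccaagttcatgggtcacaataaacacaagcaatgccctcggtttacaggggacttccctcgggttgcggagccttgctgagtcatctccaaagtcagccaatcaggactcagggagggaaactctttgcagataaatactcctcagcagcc

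Both Ifit3, higher in NIC-Carm1, and Cxcl10, lower, were chosen for holding the interferon core, so its presence in both was fixed by that choice.

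**Figure D4:**
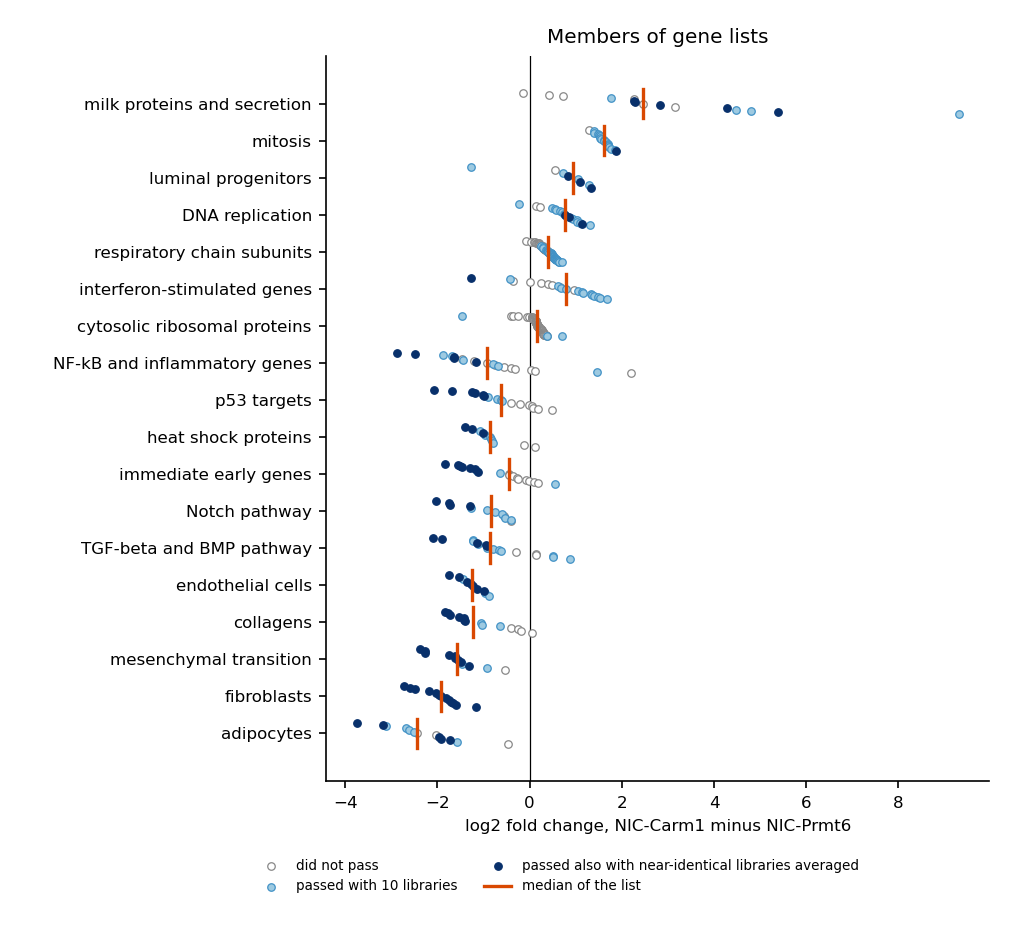
Log2 fold change (NIC-Carm1 minus NIC-Prmt6) of each tested member of 18 gene lists, 1 point per gene, with the list's median as an orange line. Dark points passed the test also with the near-identical libraries averaged, light blue points with all 10 libraries alone, and open points did not pass; all 13 fibroblast genes are dark and below 0, while most mitosis genes are light blue and above 0.

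Genes of the respiratory chain were higher in NIC-Carm1 by small amounts. Of 71 respiratory chain subunits 43 were higher and none lower, with a median of 0.39, and none held on averaging; 3 or 5 were higher without NIC-Prmt6 replicate 1 or 2. Of 38 proteasome subunits 12 were higher and none lower, with 1, Psmd5, held (0.65, adjusted p = 0.00168, 0.0487 averaged); 2 were higher without NIC-Prmt6 replicate 1 or 2, and 6 or 4 without NIC-Carm1 replicate 2 or 3. Of 79 cytosolic ribosomal proteins 2 were higher and 1 lower (5 and 2 by DESeq2). Under upper-quartile scaling 55 respiratory chain genes, 21 proteasome genes and 9 ribosomal genes were higher, so these small differences depend on the scaling. Splicing regulators were lower for 12 of 31 and higher for none, with a median of -0.23; none held on averaging, 7 were lower under upper-quartile scaling, 6 without NIC-Carm1 replicate 2 or 3 and 5 without NIC-Prmt6 replicate 1 or 2. Srsf7 was at 2821, 3062 and 2865 in NIC-Carm1 and 4716 and 4612 in NIC-Prmt6 (log2 fold change -0.68 ± 0.12, adjusted p = 0.00242, 0.0652 averaged).

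Single enzymes of glycolysis and lipid synthesis moved by more. Of 19 glycolysis and hypoxia genes 9 were higher (4 without NIC-Prmt6 replicate 1 or 2) and 2 lower (4 without NIC-Carm1 replicate 1). Egln3, an oxygen-sensing prolyl hydroxylase (chromosome 12, 54178981 to 54203860, minus strand), was at 2320.3, 2554 and 2521 in NIC-Carm1 and 586 and 646 in NIC-Prmt6 (a mean 4-fold higher in NIC-Carm1, adjusted p = 0.000107, 0.0114 averaged), and Pfkl, a phosphofructokinase, was at 11199, 9462 and 9569 against 4279 and 4183 (log2 fold change 1.25 ± 0.19, adjusted p = 0.00098, 0.0344 averaged). Hk2, a hexokinase, was lower in every alternative, at 1854, 1006 and 1032 against 3942 and 3966 (log2 fold change -1.67 ± 0.22, adjusted p = 0.000507, 0.0232 averaged), while Hk1 was higher (0.75, adjusted p = 0.00337, 0.0862 averaged). Of 12 fatty acid synthesis genes 6 were higher and 1 lower; without NIC-Prmt6 replicate 1 or 2, 2 were higher, and without NIC-Carm1 replicate 2 or 3, 3 were. Srebf1, the transcription factor of lipid synthesis, was at 38794, 45842 and 42687 against 11376 and 11388 (log2 fold change 1.90 ± 0.38, adjusted p = 0.00417, 0.0809 averaged), Me1, which supplies NADPH, was higher in both fits (0.73, adjusted p = 0.00122, 0.0422 averaged), and Fasn, fatty acid synthase, was at 24482, 8854 and 8147 against 10089 and 10580.00 (adjusted p = 0.654). Cholesterol genes split, with 3 of 17 higher (1 without NIC-Prmt6 replicate 1 or 2) and 6 lower. Hmgcs1, an early enzyme of sterol synthesis, was at 1289.7, 1044 and 1099.7 against 3437 and 3311 (log2 fold change -1.56 ± 0.17, adjusted p = 0.000172, 0.0149 averaged), lower in every alternative. Dhcr7, the last step of the pathway, was higher, at 1419, 1466 and 1459 against 609 and 688 (log2 fold change 1.16 ± 0.25, adjusted p = 0.00536, 0.0899 averaged).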

How the data were processed

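The submitters' processing notes name TopHat2 2.0.10, HTSeq 0.6.0, DESeq 1.18.0 and the build mm10. Annotation, strand setting and filters are not stated there, so overlapping, antisense or near-identical genes (caseins, Hspa1a and Hspa1b) are uncertain as single genes. The deposited table holds a normalised signal per gene, the authors' read count divided by a library size factor, and 100% of its values were whole reads once multiplied back (tolerance 0.01). Every gene has at least 10 reads in its highest library. limma 3.58.1 (R 4.3.3, trend) was run on log2(value + 1) for 15694 genes (2 or more libraries at 10 or above). All 10 libraries and 4 group means entered 1 fit (6 residual degrees of freedom, 4 with pairs averaged), with a Benjamini-Hochberg threshold of 0.05. It was tested on simulated data with independent libraries and no near-identical pairs, so that test does not check the p-values given here. DESeq2 1.42.0 and edgeR 4.0.16 on recovered reads were alternatives, with others given in the closing section. Named genes are the methyltransferases and partners, the 15 largest rises and falls (passing both fits, no overlap, mean of at least 100 in the higher group, no clone names) and up to 3 members per list and direction by adjusted p; other list members are named as examples after their values were seen. Members and the 54 gene lists were chosen with earlier results of these data known. Positions are from GENCODE (GRCm38), promoter windows from RefSeq (GRCm38.p6).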

Additional observations from a re-analysis of the deposited data

How the results depend on the processing

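The number of changed genes was within 1.5 times of 6157 with DESeq2 (6610) and edgeR (6210) on recovered reads, the 2 groups alone, pseudocounts of 0.5 and 5, no filter, a filter of 50, and upper-quartile and TMM scaling, but upper-quartile scaling turned the balance to 3536 higher and 2845 lower (55.4% higher, against 46.8%). It fell to 1262 (268 higher and 994 lower) with near-identical libraries averaged, and to 387 (32 higher and 355 lower) with NIC-Carm1 replicate 1 left out as well; fewer samples enter these fits, and the last compares 1 value with 1. Leaving out 1 library at a time gave 2575 to 6355 changed genes, with 970 to 2899 higher and 1605 to 3456 lower, the lowest counts without NIC-Prmt6 replicate 1 or 2 (2575 and 2673). Of 219 named genes 212 passed, 59 of them under every alternative, that 1-against-1 fit included, and no named gene reversed. Apart from the methyltransferases and partners, these genes were named because they passed, so the 212 was largely fixed by the rule. That rule also made reversals unlikely. The Prmt6 and Carm1 results kept their side of the threshold throughout. The labels do not say what a shared replicate number means, and with NIC-Prmt6 libraries this alike the deviations (correlations of -0.0144 and -0.00926) cannot show if the numbers pair the libraries. With the replicate block, 5086 genes passed (2299 higher and 2787 lower). Few reads were counted for Prmt8 in both groups and for Marco in NIC-Prmt6, and the part that counting depth plays was not tested.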

Other observations

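Immune cell genes did not move as a block. Marco, a scavenger receptor of macrophages, had the values 1578, 1281 and 1299 in NIC-Carm1 and 2.72 and 7.74 in NIC-Prmt6, from 3 and 9 reads in the latter, with 16.9 and 634 in NIC (log2 fold change 7.92 ± 1.59, adjusted p = 0.00419, 0.0756 averaged). Of 12 macrophage genes 2 were higher, Marco and Cx3cr1, and 2 lower, Cd68 and Mertk, and the macrophage list summed to 601, 747 and 761 CPM against 742 and 761 CPM. These shares, 16.7% higher and 16.7% lower, were near the 18.4% and 20.9% of all genes tested. In the next list 28.6% were lower. Of 14 genes of alternatively activated and resident macrophages 4 were lower (1 without NIC-Prmt6 replicate 1 or 2) and none higher, with a median of -1.47. Without NIC-Carm1 replicate 1, 4 were lower and 1 higher, with a median of -0.76. The list summed to 205, 536 and 536 CPM in NIC-Carm1 and 725 and 738 CPM in NIC-Prmt6. Mgl2, a lectin, was among the lower, at 93.5, 225 and 237 against 558 and 655 (log2 fold change -1.82 ± 0.36, adjusted p = 0.00417, 0.0471 averaged). Mast cell genes were lower for 6 of 9, 3 under upper-quartile scaling and none on averaging, with sums of 55.3, 134 and 147 CPM in NIC-Carm1 and 253 and 254 CPM in NIC-Prmt6; without NIC-Carm1 replicate 1, 1 of 9 was lower, without replicate 2, 2 were, and without NIC-Prmt6 replicate 1 or 2 none was. B cell genes summed to 22.6, 24.4 and 24.6 CPM against 4.94 and 5.19 CPM, and 1 of 8 passed; the NIC-Prmt1 libraries, which enter the error, spread from 3.99 to 57.6 CPM. Skeletal muscle genes summed to 33.9, 99.1 and 100.4 CPM in NIC-Carm1 and 23.3 and 23.7 CPM in NIC-Prmt6, with 4 of 11 higher, 8 without NIC-Carm1 replicate 1, 1 without NIC-Prmt6 replicate 2 and 9 by DESeq2.

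In a list of the aryl hydrocarbon receptor, which senses aromatic compounds, and its targets, 5 of 8 genes were lower (3 without NIC-Prmt6 replicate 1 or 2) and none higher. Ahr, the gene of the receptor, was among the 5 (-0.55, adjusted p = 0.00443, 0.108 averaged). Cyp1a1, its best known target (chromosome 9, 57687928 to 57703824, plus strand), was at 32.7, 10.7 and 20.4 in NIC-Carm1 and 302 and 267 in NIC-Prmt6 (log2 fold change -3.81 ± 0.55, adjusted p = 0.000799, 0.0282 averaged), lower in every alternative. Its NIC libraries were at 616 and 838, above both groups, and its NIC-Prmt1 libraries were at 22.7 to 82.7. Tiparp, another target, was at 4089.7, 3630.2 and 3818 against 9747 and 9837 (log2 fold change -1.35 ± 0.16, adjusted p = 0.000309, 0.0216 averaged). ATF4 and its targets split evenly, with 6 of 16 higher and 6 lower (3 and 3 without NIC-Prmt6 replicate 1, 2 and 2 without replicate 2). The serine synthesis gene Psat1 was higher (1.04, adjusted p = 0.0028, 0.044 averaged) and the cystine transporter gene Slc7a11 lower (-1.24, adjusted p = 0.0038, 0.0701 averaged). Atf4 itself was among the 6 lower (-0.70, adjusted p = 0.00947, 0.153 averaged). Among amino acid transporters, Slc1a5, which carries glutamine, was at 659, 994 and 1007 against 2798 and 2772 (log2 fold change -1.68 ± 0.18, adjusted p = 0.000172, 0.011 averaged), and Slc43a2, which carries large neutral amino acids, was at 3197, 2174 and 2036 against 1128 and 1184 (log2 fold change 1.06 ± 0.16, adjusted p = 0.00117, 0.0241 averaged); both calls held in every alternative. Endoplasmic reticulum chaperones and regulators were higher for 6 of 14, none on averaging and 1 without NIC-Prmt6 replicate 1 or 2, such as Xbp1, the secretory stress factor, at 26641, 30584 and 30929.9 against 12650.4 and 12686 (log2 fold change 1.21 ± 0.27, adjusted p = 0.00651, 0.108 averaged).

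Of 25 histone lysine modifiers and deacetylases 6 were lower (24%, near the 20.9% of all genes tested) and 1 higher (4%, against 18.4%). Without NIC-Prmt6 replicate 1 or 2, 2 were lower. Kdm6b, a histone demethylase induced by inflammation, was at 7626, 7600.1 and 7470.1 in NIC-Carm1 and 15621 and 15934 in NIC-Prmt6 (log2 fold change -1.06 ± 0.12, adjusted p = 0.000294, 0.0227 averaged), and Hdac7, a deacetylase with a known role in vessels, was lower (-0.93, adjusted p = 0.0012, 0.0408 averaged). The catalytic subunit gene Ezh2 was at 877, 683 and 767 against 685 and 700.1 (adjusted p = 0.341). In the coactivator and substrate list that follows, 16.7% were higher and 25% lower, near the 18.4% and 20.9% of all genes tested. Of 12 nuclear receptor coactivators and PRMT substrates 2 were higher and 3 lower, none on averaging: Ep300, a CARM1 partner, was lower (-0.56, adjusted p = 0.0177, 0.167 averaged), as were Crebbp (-0.50, adjusted p = 0.0307, 0.237 averaged) and the splicing factor gene Sf3b1 (-0.34, adjusted p = 0.0271, 0.273 averaged), and Smarcc1, which encodes BAF155, was higher (0.30, adjusted p = 0.0194, 0.172 averaged), as was Ppargc1a (1.20, adjusted p = 0.0221, 0.183 averaged).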
